A study of Mus musculus with 34 samples.

Results

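The cytosolic ribosomal proteins were followed here through monocytes and macrophages of mice bearing tumors of the LLC line (Lewis lung carcinoma) or the MC38 line (colon adenocarcinoma). Members were the rows of the deposited count table whose mapped symbol is Rpl or Rps with a number, or is Rpsa, Rplp0, Rplp1 or Rplp2. The ribosomal protein kinases were left out, and of 85 matching rows the transcribed pseudogene Rps4l was removed. This left 84 members of 24475 rows: 31 proteins of the small (40S) subunit, 43 of the large (60S) subunit, 3 of the large subunit's stalk, and 7 paralogs whose symbols end in l or l1. No measured value entered this choice.

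Bulk RNA-seq was made from C57/Bl6 mice in 9 groups. The LLC tumor line gave tumor monocytes called TuMon2, which were sorted as Ly6C+, CD88+ and Sca1-, tumor macrophages (TuMac), and Ly6C+ spleen monocytes (spMon), each with 4 libraries. The MC38 tumor line gave tumor monocytes called TuMon1, which were Ly6C+, CD88+ and Sca1+, tumor macrophages, and Ly6C+ spleen monocytes, again with 4 libraries each. In culture, Ly6C+ monocytes of bone marrow were left untreated (Control, 4 libraries) or given supernatant of LLC cells (3 libraries, labelled Sca1-) or of MC38 cells (3 libraries, labelled Sca1+). TuMon1 and TuMon2 differ both in tumor line and in the Sca1 gate, and the contributions of the line and the gate cannot be told apart. No spleen monocytes of tumor-free mice were analysed here. Where the labels do not say that replicates came from separate animals or cultures, the p-values measure only the spread between these libraries.

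Ribosomal proteins assemble with ribosomal RNA in the nucleolus into the 40S subunit, which reads the mRNA, and the 60S subunit, which joins amino acids. Their mRNAs are among the most abundant of a cell, and many begin at the cap with an uninterrupted stretch of pyrimidines, the 5′ terminal oligopyrimidine (TOP) element, through which the mTORC1 pathway and the protein Larp1 control their translation. A few members have paralogs used in other settings, such as Rpl3l in striated muscle, Rpl10l and Rpl39l in the male germ line, and Rps27l, a target of p53.

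The start sites of 64 of the 84 members were found in RefSeq (GRCm38.p6), and windows from 15 bases before to 15 bases after the start are printed here for members on which the results turn. Capitals mark the longest run of C and T that reaches to within 5 bases of the start. In Rps6, Rpl35 and Rplp2 the run crosses the annotated start, and in Rpl12 it begins just after the start base, which is a G. Whether these runs begin at the cap is not shown by the windows. Rpsa, Rpl10a and Rps28 are core members described below, and the last lines belong to the paralogs that set themselves apart from the family.
Rps6, chr4:86857353-86857382, minus strand: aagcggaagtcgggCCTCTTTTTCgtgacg
Rpl35, chr2:39005117-39005146, minus strand: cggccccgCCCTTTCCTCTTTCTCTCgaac
Rpl12, chr2:32961697-32961726, plus strand: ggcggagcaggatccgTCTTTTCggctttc
Rplp2, chr7:141447636-141447665, plus strand: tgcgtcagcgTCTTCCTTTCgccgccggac
Rpsa, chr9:120127751-120127780, plus strand: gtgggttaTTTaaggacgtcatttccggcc
Rpl10a, chr17:28328456-28328485, plus strand: gtggcgCCCCCCCagcggccgcaaactgca
Rps28, chr17:33824548-33824577, minus strand: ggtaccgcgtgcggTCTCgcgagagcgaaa
Rpl22l1, chr3:28805493-28805522, plus strand: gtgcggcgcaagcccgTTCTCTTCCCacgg
Rpl7l1, chr17:46782642-46782671, minus strand: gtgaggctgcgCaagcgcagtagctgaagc
Rps27l, chr9:66946071-66946100, plus strand: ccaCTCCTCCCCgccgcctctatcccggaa

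A run of 6 or more pyrimidines reached to within 5 bases of the start in 33 of the 64 members (51.6%). The same held for 6227 of the 27025 genes of the RefSeq promoter table (23.0%). The 64 members have 76 annotated starts, and a member was counted if any of its starts had such a run. Such a run can lie wholly before the annotated start, as it does in Rpl10a and Rps27l. Both of these have another annotated start, not printed, where the run is only 1 base in Rpl10a and 4 bases in Rps27l. The share with a run of 8 or more was 39.1% of members and 11% of all genes of that table, which is also the background of the motif shares that follow. Within 10 bases of the start, on the strand of the gene, the letters CTTTT were found in 6.25% of members (2.39% of all genes), CTTTC in 17.2% (2.91%) and TCTTT in 14.1% (2.58%). These motifs overlap one another, and at least 1 of them was found in 25% of members against 6.18% of all genes. Rpl7l1 has no such run at its annotated start, while Rpl22l1 has one.

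The family's level was first taken as the share of each library's counts that fell on the 84 rows, the summed ribosomal protein share. It was 5.34% ± 0.133 (SD, n = 4) in untreated cultured monocytes and 5.34% ± 0.159 (n = 4) in LLC spleen monocytes. The tumor macrophages followed, with 4.89% ± 0.69 (n = 4) in LLC and 4.44% ± 0.52 (n = 4) in MC38 tumors. TuMon2 stood at 4.09% ± 0.297 (n = 4). MC38 spleen monocytes had 3.99% ± 0.252 (n = 4). Each of these groups overlapped the next in this order. Below them, with no overlap between neighbours, came monocytes given LLC supernatant (3.53% ± 0.0577, n = 3), TuMon1 (2.81% ± 0.101, n = 4) and monocytes given MC38 supernatant (2.43% ± 0.182, n = 3). Both lowest groups were the Sca1+ monocytes of the MC38 arms, in the tumor and in the dish. In bulk samples, a smaller number of cells rich in these mRNAs and less of each mRNA per cell cannot be told apart.

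**Figure D1:**
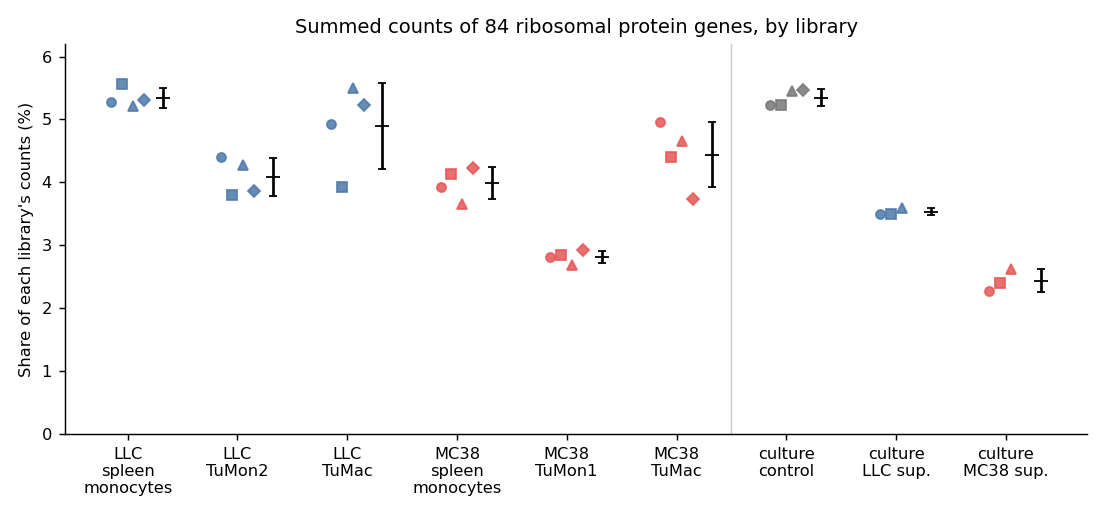
Percent of all counts that fall on the 84 ribosomal protein rows (y axis) in each library of the 9 groups (x axis); circle, square, triangle and diamond are replicates 1 to 4 and the black bar is the group mean ± SD. TuMon1 libraries lie between 2.68% and 2.92%, below all TuMon2 libraries (3.80% to 4.40%), and libraries given MC38 supernatant lie between 2.27% and 2.63%, below all those given LLC supernatant (3.50% to 3.60%).

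Counts scaled by edgeR's TMM factors and given as CPM, counts per 1e6 counts of the scaled library, which set aside the few genes that take large shares, gave smaller differences between organs than the plain shares. The summed members came to 47855 CPM in TuMon2 and to 31427.8 CPM in TuMon1, a ratio of 0.657, against 0.689 for the shares. MC38 spleen monocytes had 35315 CPM and LLC spleen monocytes 51422.2 CPM, so that tumor and spleen differed by ratios of only 0.89 in MC38 and 0.931 in LLC, where the shares gave 0.706 and 0.765. LLC macrophages had 47227.5 CPM, a ratio of 0.987 to TuMon2 where the shares gave 1.2, so the direction of that comparison depends on the scale. MC38 macrophages had 41521.8 CPM, above TuMon1 on both scales. Culture libraries were scaled apart and had 50491.8 CPM in controls, 37510 CPM with LLC supernatant and 24949.7 CPM with MC38 supernatant. The tests below use the TMM scale.

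Of the 76 core members (all but the paralogs and Rpl26) the lowest mean CPM among the 6 groups from mice was in TuMon1 for 42 and in MC38 spleen monocytes for 34. The highest was in LLC spleen monocytes for 49, in LLC macrophages for 17, in TuMon2 for 8 and in MC38 macrophages for 2. In culture the lowest group was MC38 supernatant for 76 of 76, and the highest was the control for 73. The subunits did not move in exact step: the 60S sum was 1.25 times the 40S sum in TuMon2 and 1.32 times in TuMon1. It was 1.22 times in culture controls, 1.35 times with LLC supernatant and 1.33 times with MC38 supernatant.

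Library totals ranged from 13047772 to 26966644 counts. Monocyte and macrophage markers summed to between 13904.9 and 30000.7 CPM in every library, and Ly6a, which encodes Sca1, was measured at 1733.8 ± 50.4 CPM in TuMon1, far above the 36.5 ± 4.71 CPM of TuMon2 (mean ± SD of 4 libraries). Transcripts of other tissues stood out in 5 libraries. Fat cell markers summed to 6678.8, 6311.1 and 11167.5 CPM in MC38 spleen replicates 1 to 3, against 21.2 CPM in replicate 4 and 8.1 to 12.3 CPM in LLC spleen. The fibroblast and endothelial markers summed to 3139.2 CPM in MC38 supernatant replicate 3, against 167 and 170 CPM in the other libraries of that group. Control replicate 2 held 85.1 CPM of the germ line paralog Rpl10l and 93.6 CPM of epithelial markers, against 3.34 to 3.95 CPM of the latter in the other controls.

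Some members were counted partly on near-identical rows that the symbol rule does not take in. Rpl30, a 60S protein, had 0.936 to 5.9 CPM in 15 libraries of 8 groups, while Gm12191, whose transcript is 99.7% identical, had 202 to 407 CPM there. In the other 19 libraries Rpl30 had 217 to 798 CPM and Gm12191 0 to 39.7 CPM. Replicates of a group fell on both sides, so the sum is the usable value: 390 ± 25.4 CPM in TuMon2 and 264 ± 13.9 CPM in TuMon1 (SD, n = 4 each). Rpl26 was at 0 in every library while Gm15772 (99.5% identical) had 288 to 719 CPM. Rpl34 had at most 8.35 CPM beside 170 to 419 CPM for Rpl34-ps1 (99.4%), and Rps27 at most 33.4 CPM beside 180 to 627 CPM for Rps27rt (98.8%). The rows of Rpl30, Rpl26, Rpl34 and Rps27 are therefore uncertain as levels of those genes; how the reads were assigned was not tested.

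**Figure D2:**
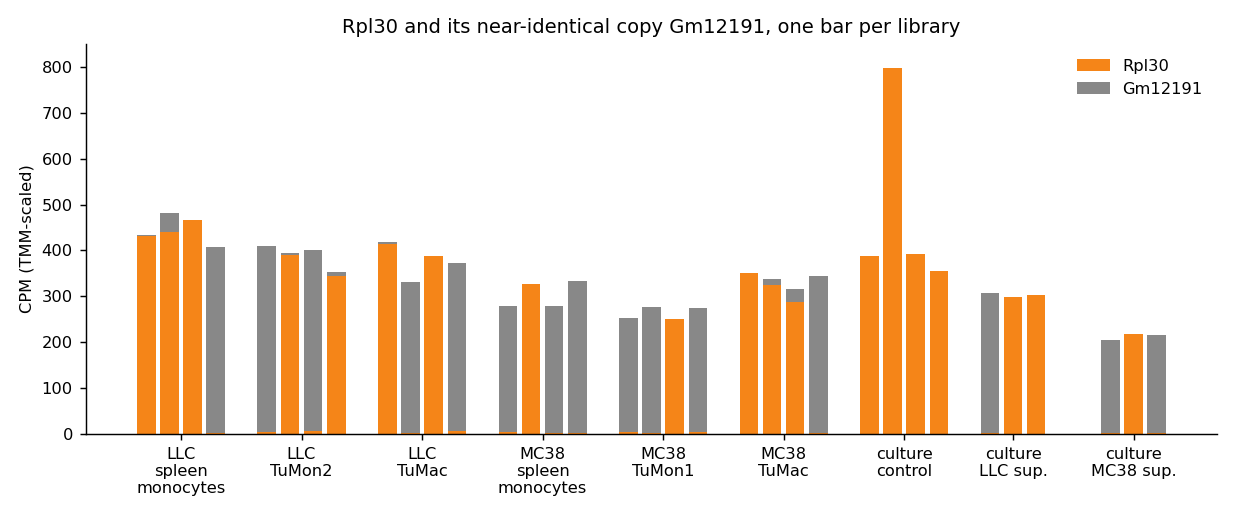
Stacked bars of the CPM (y axis) of Rpl30 and of its near-identical row Gm12191, 1 bar per library in the 9 groups (x axis); the height of a bar is their sum. In 15 libraries the counts lie on Gm12191 and in 19 on Rpl30, and the sum of Control replicate 2, at 798 CPM, lies above all others.

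The first comparison asked how the Sca1+ tumor monocytes of MC38 tumors differ from the Sca1- tumor monocytes of LLC tumors. Nearly the whole family was lower in TuMon1. Of 81 members tested, 73 fell and 2 rose, where 48.9% of all 13200 tested genes were called (22.1% lower and 26.8% higher). Rpl10l, Rpl39l and Rpl26 did not pass the filter on low counts. The members' median log2 difference was -0.60, against 0.06 for all tested genes. For 77 of the 81 (95.1%) the 4 TuMon1 libraries did not overlap the 4 TuMon2 libraries, 75 lying below and 2 above. The same held for 51.2% of all tested genes, 23.3% lying below and 27.9% above.

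Small-subunit members fell in 30 of 31 cases, with a median log2 difference of -0.68. Rpsa, which sits on the solvent side of the 40S subunit and is also known as the laminin receptor, had 1224.1, 1023, 1213.5 and 1044.2 CPM in TuMon2. It had 650, 643, 598 and 666 CPM in TuMon1. The groups are far apart, and the difference was -0.82 ± 0.09 (log2, SE; edgeR adjusted p = 4.7e-08). Rps28 had 346 to 429 CPM in TuMon2 and 190 to 225 CPM in TuMon1, a difference of -0.87 ± 0.17 (edgeR adjusted p = 0.000273). The exception was Rps2, a protein at the mRNA entry channel, with 844 to 998 CPM in TuMon2 and 713 to 791 CPM in TuMon1. Its libraries did not overlap, but its log2 difference of -0.28 did not pass the threshold (edgeR adjusted p = 0.0657).

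Large-subunit members fell in 39 of 42 cases, with a median of -0.55. Rpl10a had 379, 318, 384 and 342 CPM in TuMon2 and 188, 182, 183 and 199 CPM in TuMon1. Every TuMon1 library lay below every TuMon2 library, with a difference of -0.92 ± 0.12 (log2, SE; edgeR adjusted p = 4.95e-07). Rpl5, which carries 5S ribosomal RNA into the subunit, had 720 to 812 CPM in TuMon2 and 424 to 467 CPM in TuMon1 (log2 difference -0.79, edgeR adjusted p = 1.25e-09). Rpl3, which lies near the peptidyl transferase centre, had 751 to 873 and 497 to 522 CPM (-0.66). Rpl41, the shortest member, had 522 to 728 CPM in TuMon2 and 370 to 596 CPM in TuMon1, and these ranges overlap (log2 difference -0.35, edgeR adjusted p = 0.248). The other 60S members not called were Rpl30 and Rpl34, whose counts lie partly or mostly on other rows; Gm15772, the row that stands in for Rpl26, fell by 0.57.

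The stalk recruits the elongation factors, and its 3 proteins all fell. Rplp0, which anchors the stalk, had 1532.6, 1373.7, 1553 and 1398.8 CPM in TuMon2 and 855, 856, 802 and 894 CPM in TuMon1, with a log2 difference of -0.78 (edgeR adjusted p = 4.84e-07). Rplp2 differed by the same -0.78. Rplp1 fell less, from 474 to 592 CPM down to 378 to 449 CPM, with a log2 difference of -0.33 ± 0.14 (edgeR adjusted p = 0.0445). That call was lost under 7 alternatives, among them the upper quartile scaling and leaving out any of 5 single libraries (TuMon2 replicate 1 or 3, TuMon1 replicate 1, 2 or 3), with adjusted p between 0.0574 and 0.142.

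**Figure D3:**
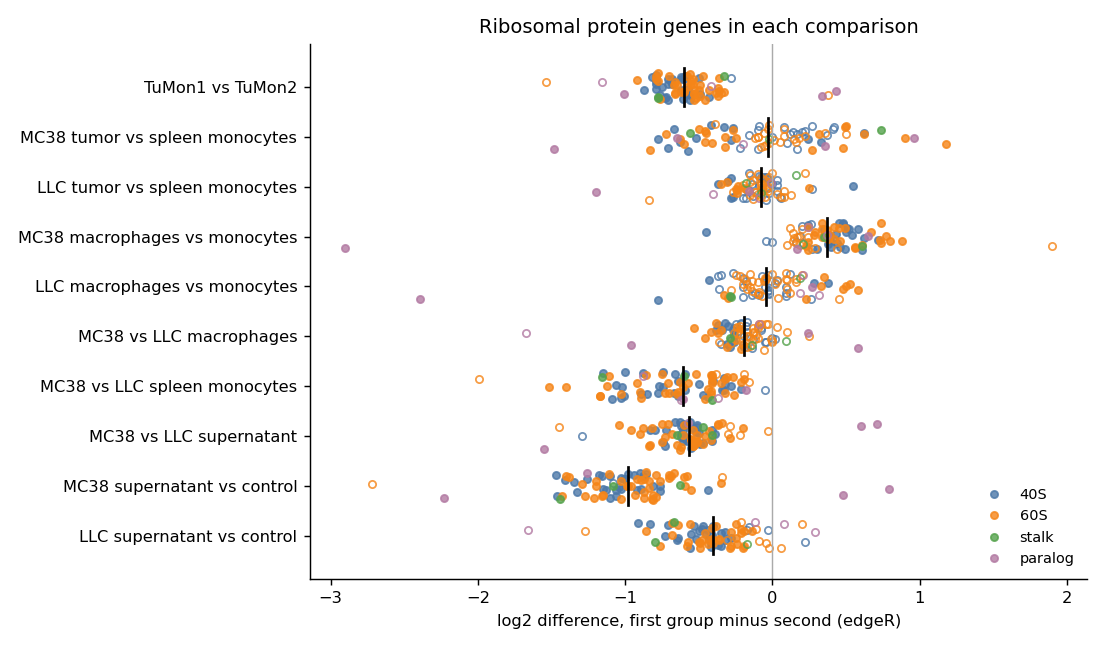
Log2 difference (x axis) of each tested member in each of the comparisons (y axis), colored by subunit class and spread vertically only for legibility; filled points passed edgeR's test at an adjusted p of 0.05, open points did not, and the black bar is the median. The medians are -0.60 for TuMon1 against TuMon2 and -0.56 for MC38 against LLC supernatant, while tumor against spleen lies at -0.03 in MC38 and -0.08 in LLC.

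Genes around the ribosome were taken from lists of pathway genes. Fau and Rpl36al, which encode ribosomal proteins but lie outside the symbol rule, fell with the family, Fau by 0.59 and Rpl36al by 0.49 on the log2 scale. Of 20 translation factors and partners whose mRNAs mostly carry the same 5′ element, 15 fell and none rose (median -0.43). Eef1a1, which brings tRNA to the ribosome, went from 8247.8 ± 336 CPM in TuMon2 to 5011.6 ± 127 CPM in TuMon1 (SD, n = 4 each; log2 difference -0.72). Eef2, the translocation factor, differed by -0.75, Tpt1 by -0.85 and Eif3f by -0.77.

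Factors that build ribosomes did not follow the proteins they assemble. Of 36 ribosome biogenesis genes 10 rose and 4 fell (median 0.06), where 26.8% of all tested genes rose and 22.1% fell (median 0.06). The rise of this list was thus near that of all genes, and the same shares are the background of the other lists. Nop56, of the box C/D particle, rose from 56.6 ± 7.08 to 93.2 ± 2.52 CPM (log2 difference 0.72, edgeR adjusted p = 7.13e-07). Mitochondrial ribosomal proteins rose in 35 of 78 cases and fell in 3 (median 0.25). Among 21 tested genes that control ribosomal protein synthesis 5 rose and 11 fell. Deptor, an inhibitor of mTOR, fell from 42.5 ± 4.54 to 20.4 ± 1.24 CPM (log2 difference -1.06), and Eif4ebp1, an mTORC1 target that restrains translation, fell by 0.67. Myc, which drives ribosomal genes, rose by 0.93. The others that rose were Sesn3 (1.31), Rptor (0.36), Sesn1 (0.34) and Rheb (0.29). Those that fell included Ddit4 (-0.92), Rps6kb1 (-0.48), Sesn2 (-0.44), Rps6kb2 (-0.35) and Rps6 (-0.59), which is itself a member.

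Other measures moved with the comparison. All 12 proliferation genes rose (median 1.73), from 164 to 187 CPM in sum in TuMon2 to 356 to 383 CPM in TuMon1. T and NK cell markers rose in 6 of 10 tested cases and fell in 1, with sums of 46.1 to 61.5 CPM in TuMon2 and 147 to 203 CPM in TuMon1. Il7r, which rose from 50.8 to 165 CPM (means), made up most of these sums, and Cd3d stood at 1.08 and 1.22 CPM. The fibroblast and endothelial markers rose in 3 of 9, with sums of 48.9 to 75 and 230 to 313 CPM, of which Kdr (6.47 and 159 CPM) and Pecam1 (34.4 and 89 CPM) made up most in TuMon1. Epithelial and tumor markers fell in 4 of 4 tested, with sums of 42.1 to 67.2 and 6 to 8.32 CPM. Cdh1 (47.5 and 6.64 CPM) made up most of these sums, and it stood at 104 CPM in LLC macrophages. Krt7, Krt18 and Krt8 had group means of at most 1.07 CPM. Of 15 monocyte and macrophage markers 9 rose and 6 fell. C1qa rose from 186 to 1292.5 CPM, and Lyz2 fell from 8528.3 to 2851.7 CPM. Neutrophil markers fell in 4 of 10 cases and rose in 1, and B and plasma cell markers rose in 3 of 6 and fell in 0. The part of these in the fall of the ribosomal proteins was not tested.

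The culture experiment asked for the effect of tumor supernatants on monocytes that had not been in a tumor. With MC38 supernatant, 71 of 80 tested members were lower than with LLC supernatant and 2 were higher, where 40.1% of 12603 genes were called (18.5% lower, 21.6% higher). The members' median was -0.56, against 0.051 for all tested genes. The 40S members fell in 30 of 31 cases (median -0.60), the 60S members in 37 of 42 (median -0.54) and the stalk proteins in 3 of 3.

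Rpl10a had 326, 324 and 315 CPM with LLC supernatant and 141, 150 and 179 CPM with MC38 supernatant. No library overlapped, and the log2 difference was -1.04 ± 0.09 (SE; edgeR adjusted p = 1.37e-05). Rpl3 had 922, 888 and 909 CPM and then 415, 435 and 546 CPM (log2 difference -0.96, edgeR adjusted p = 4.19e-05). Rpl12, at the base of the stalk, had 564, 533 and 569 CPM with LLC and 285, 295 and 350 CPM with MC38 supernatant (-0.84). Rpl3 and Rpl12 fell further here than the family's median. MC38 supernatant replicate 3, the library with fibroblast transcripts, was the highest of its group for all 3 of these genes and lay closest to the LLC libraries.

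Against untreated monocytes, 75 of 80 members were lower with MC38 supernatant and 2 were higher (67.9% of genes called, 32.5% lower and 35.4% higher), with a median of -0.98. With LLC supernatant 62 of 80 were lower and none was higher (68.4% called, 36.1% lower and 32.3% higher), with a median of -0.40. These comparisons share the control libraries. Rpsa had 1686.6, 1472.5, 1756.6 and 1733.3 CPM in controls, 896, 880 and 869 CPM with LLC supernatant and 562, 581 and 666 CPM with MC38 supernatant. Its level stepped down from group to group with no overlap, with log2 differences from the control of -0.91 and -1.46. Cell type markers moved as well. Of 10 neutrophil and granule genes 7 fell and 1 rose with MC38 supernatant, and 9 fell and 1 rose with LLC supernatant. Mpo, a granule enzyme of neutrophils and their precursors, fell from 857 CPM in controls to 2.56 CPM with MC38 and 0.391 CPM with LLC supernatant. Of 15 monocyte and macrophage markers 12 rose and 3 fell with MC38 supernatant, and 12 rose and 2 fell with LLC supernatant. Mrc1, a macrophage receptor, rose from 14.6 CPM to 1302.7 and 1907 CPM. Their part in the ribosomal protein results was not tested.

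Rplp0 behaved alike, with 1663.2 to 1866.2 CPM in controls, 998 to 1031.1 CPM with LLC and 611 to 715 CPM with MC38 supernatant. Other members were lower with MC38 supernatant alone. Rpl12 had 503 to 590 CPM in controls and 533 to 569 CPM with LLC supernatant (log2 difference -0.02, edgeR adjusted p = 0.875). Rpl10, which completes the large subunit, had 1214.7 to 1317 CPM in controls, 1162.7 to 1203.1 CPM with LLC supernatant (-0.11, edgeR adjusted p = 0.0847) and 625 to 655 CPM with MC38 supernatant (-0.99, edgeR adjusted p = 4.97e-08). For Rpl10 and Rpl12 the difference between the supernatants themselves passed the test, at -0.88 and -0.84.

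The lists around the ribosome were again divided. Between the supernatants 16 of 20 translation factors fell and none rose (median -0.45), Eef2 by 0.82 and Eef1a1 by 0.75. Of 36 biogenesis genes 26 rose and none fell (median 0.46). Nop58 rose from 17.5 ± 1.55 CPM with LLC to 38.5 ± 3.85 CPM with MC38 supernatant (SD, n = 3 each; log2 difference 1.14, edgeR adjusted p = 3.31e-05), and Dkc1, which modifies ribosomal RNA, rose by 1.0. Against the control the biogenesis list went different ways, with 13 of 36 higher and 8 lower under MC38 supernatant and 3 higher and 21 lower under LLC supernatant. Larp1 rose by 0.38 between the supernatants, Deptor fell by 1.23, and Myc did not pass the test (-0.35, edgeR adjusted p = 0.155). Of the same list Sesn2 (0.74) and Rheb (0.32) also rose, and Sesn1 (-0.7), Eif4ebp2 (-0.57), Tsc1 (-0.32), Gabpa (-0.23) and the member Rps6 (-0.6) fell.

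Proliferation genes moved the other way from the tumor comparison: 9 of 12 fell and 1 rose with MC38 against LLC supernatant (median -0.74), and 11 of 12 fell under each supernatant against the control. Their sum was 3491 to 4379.1 CPM in controls, 1170.5 to 1214.5 CPM with LLC and 657 to 733 CPM with MC38 supernatant. Neutrophil markers rose in 9 of 10 between the supernatants, among them S100a9 from 5.18 to 45.1 CPM and Ngp from 2.12 to 27 CPM. Their sum was mostly Mmp8, which did not pass the test (1714.7 CPM with LLC and 1554.9 CPM with MC38 supernatant, edgeR adjusted p = 0.338). The fibroblast and endothelial markers rose in 5 of 7 tested, with sums of 58.5 to 66 and 167 to 3139.2 CPM. The part of these values in the result was not tested; without the libraries that hold transcripts of other tissues, 77 members were called between the supernatants, 75 of them lower.

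TuMon1 against TuMon2 and MC38 against LLC supernatant share no library, so they could be laid side by side. Of 80 members tested in both, 69 were lower in both, 2 were higher in both and none was called in opposite directions, which is 86.2%, 2.5% and 0% of them. Of the 12214 other genes tested in both, 6.93% were lower in both, 9.82% higher in both and 7.19% called in opposite directions. Across the 76 core members, Pearson's r between the log2 differences was 0.61 and Spearman's rho 0.44, against 0.27 and 0.22 across the other genes. The 76 include the uncertain row of Rpl30, which had the lowest 60S values of both comparisons (-1.54 and -1.45). Summed with Gm12191, Rpl30 differed by -0.57 and -0.51, and r and rho without that row were not computed. Members are not independent replicates, and the points within each comparison share its libraries.

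To see which members left the common movement, the libraries were scaled to their own summed ribosomal protein counts. On that scale 14 members were higher and 12 lower in TuMon1 than in TuMon2, where 68.8% of all genes were called. Between the supernatants 11 were higher and 13 lower (69.6% called). Higher in both were Rpl7l1, Rps27l, Rps2, Rpl19 and Rpl27, which are 35.7% of the first list and 45.5% of the second. Those lower in both made up 50% of the first list and 46.2% of the second, and included Rpl10a, Rpl22l1, Rpl28, Rps28 and Rps4x. The call of Rps28 in TuMon1 was lost in 8 alternatives, 7 of which left out 1 library (edgeR adjusted p 0.0528 to 0.136). This scale puts the family's average at 0 by construction and shifts the genes that did not move with the family. The shares of all genes called on it are raised or lowered by that shift and do not measure how stable the members are. In the other comparisons, 27 members were higher and 15 lower than the family with MC38 supernatant against control (84.2% of genes called), and 23 and 12 with LLC supernatant (69.9%). Tumor against spleen gave 37 and 20 in MC38 (64.7%) and 8 and 8 in LLC (55%). Macrophages against monocytes gave 13 and 19 in MC38 (54.1%) and 15 and 17 in LLC (47%). The macrophages of the models gave 7 and 7 (40.3%) and the spleens 18 and 29 (71.9%).

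The 2 members that rose on the library scale in both comparisons were paralogs. Rps27l had 55.9, 40.4, 52.3 and 43.5 CPM in TuMon2 and 62, 68.9, 59.1 and 68.1 CPM in TuMon1. The groups did not overlap, yet the log2 difference of 0.43 ± 0.17 only just passed the test (edgeR adjusted p = 0.0393). The call was lost in 8 alternatives, including leaving out any of TuMon2 replicates 2, 3 and 4 or TuMon1 replicates 1, 2 and 4 (adjusted p 0.0527 to 0.181). Against its own family it stood 1.04 higher (edgeR adjusted p = 1.73e-08). In culture Rps27l had 51 to 64.8 CPM in controls, 66.8, 59.2 and 58.5 CPM with LLC supernatant and 96.6, 101 and 105 CPM with MC38 supernatant. The libraries given MC38 supernatant stood above all others, with a log2 difference of 0.71 from LLC supernatant (edgeR adjusted p = 0.000178) and 0.79 from the control.

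Rpl7l1, a relative of Rpl7 whose yeast counterpart acts in assembling the large subunit, had 73.6, 80.5, 81.7 and 74.3 CPM in TuMon2 and 106, 101, 92.8 and 93.9 CPM in TuMon1. It rose by 0.34 ± 0.07 (log2, SE; edgeR adjusted p = 0.000186), while Rpl7 itself fell by 0.62. With LLC supernatant it had 72.1, 71.8 and 74.3 CPM and with MC38 supernatant 105, 112 and 113 CPM, against 72.7 to 82.7 CPM in controls. MC38 supernatant thus differed from both other groups, by 0.60 from LLC supernatant (edgeR adjusted p = 3.97e-05) and by 0.48 from the control. In macrophages of MC38 tumors Rpl7l1 had 108 to 113 CPM, the highest range among the groups from mice.

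Rpl22l1, which is known to be held down by its parent Rpl22, was the called member that fell furthest in both comparisons. It had 51.9, 40.7, 48.4 and 41.6 CPM in TuMon2 and 20.4, 22.9, 21.1 and 26.1 CPM in TuMon1. The ranges are far apart, with a log2 difference of -1.01 ± 0.18 (SE; edgeR adjusted p = 6.74e-05). With LLC supernatant it had 61.4, 59.6 and 64.1 CPM, and with MC38 supernatant 19.4, 17.9 and 26 CPM (log2 difference -1.55 ± 0.15, edgeR adjusted p = 3.18e-05). Against the control, LLC supernatant gave 0.29 (edgeR adjusted p = 0.0845) and MC38 supernatant -1.26 (edgeR adjusted p = 2.34e-05). Rpl22 fell too in TuMon1 (-0.53), and the paralog's ratio to it moved less there than the paralog did. For every 100 CPM of Rpl22 there were 18.6 ± 1.15 CPM of Rpl22l1 in TuMon2 and 13.4 ± 1.3 in TuMon1 (SD, n = 4 each), and 30.2 ± 0.5 with LLC and 12.5 ± 1.71 with MC38 supernatant (n = 3 each). These ratios compare groups and not the abundance of the 2 mRNAs per length.

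**Figure D4:**
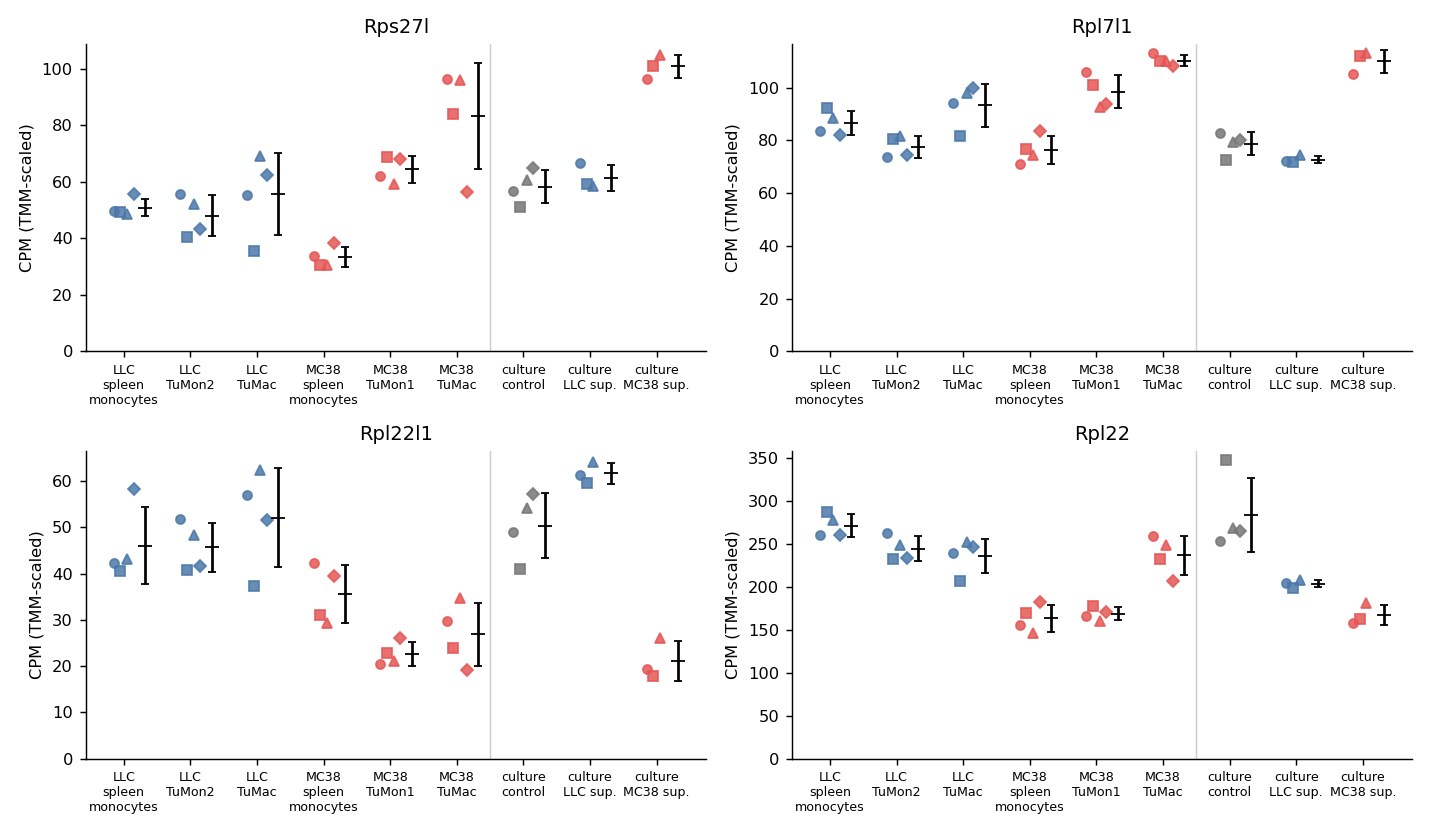
CPM (y axis) of Rps27l, Rpl7l1, Rpl22l1 and the core member Rpl22 in each library of the 9 groups (x axis), with replicate markers and mean ± SD as in the plot of summed shares. Rpl22l1 lies between 20.4 and 26.1 CPM in TuMon1 and between 17.9 and 26 CPM with MC38 supernatant, where Rps27l reaches 96.6 to 105 CPM.

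Members were also divided by the pyrimidine run at their annotated start. In TuMon1 against TuMon2 the median log2 difference was -0.56 for 29 tested core members with a run of 6 or more and -0.62 for 27 without. Between the supernatants these medians were -0.54 and -0.61. Both kinds of member moved by nearly the same amount in either comparison. Some of the runs lie wholly before the annotated start, so this division does not separate mRNAs with the 5′ element from those without it. Of the paralogs whose windows are printed above, Rpl22l1 and Rps27l both have such a run. That of Rps27l lies before the printed start and is absent at its other annotated start. Rpl22l1 fell while Rps27l rose.

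Monocytes of the tumor were also compared with those of the spleen. In the LLC model 14 of 81 members were lower in TuMon2 than in spleen and 2 were higher, so that 19.8% of members were called where 62.6% of genes were (34% lower, 28.6% higher). In the MC38 model 26 were lower and 14 higher in TuMon1 (70.1% of genes called, 36.6% lower and 33.5% higher); with upper quartile scaling, which shifts the median of all genes to -0.18, these counts were 35 and 9, and without MC38 spleen replicate 4 they turned to 21 and 24. Rps2 had 539 to 736 CPM in LLC spleen and 844 to 998 CPM in TuMon2 (log2 difference 0.55, edgeR adjusted p = 0.0004). Without LLC spleen replicate 2 the count in the LLC model was 10, and with upper quartile scaling it was 27, 26 of them lower. Rpsa fell in both models, by 0.37 in LLC and by 0.78 in MC38. Rpl5 had 732 to 852 CPM in MC38 spleen and 424 to 467 CPM in TuMon1 (-0.83, edgeR adjusted p = 1.19e-10). Markers of other cells moved with both comparisons. Of 10 neutrophil markers 9 fell in the LLC model, S100a9 from 1363.4 to 10.3 CPM, and 8 fell and 1 rose in the MC38 model. B and plasma cell markers fell in 6 of 6 in LLC, Jchain from 61.8 to 0 CPM, and in 5 of 6 in MC38. T and NK cell markers fell in 8 of 10 and rose in 2 in LLC, and rose in 5 and fell in 4 in MC38. Proliferation genes fell in 10 of 12 and rose in 1 in TuMon2 against LLC spleen (median -1.65), and rose in 11 of 12 with none lower in TuMon1 against MC38 spleen (median 0.84). In MC38 all 7 fat cell markers and 7 of 9 fibroblast and endothelial markers fell, and 2 of the 9 rose; in LLC none of the 7 was called, and of the 9 4 rose and 1 fell. The part of these values in the results was not tested.

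The spleens themselves differed. In MC38 spleen monocytes 73 of 81 members were lower than in LLC spleen monocytes and none was higher, where 28.4% of genes were called (14% lower, 14.4% higher), with a median of -0.61 against -0.07 for all genes. Rpl39, which lines the exit tunnel, had 233, 249, 190 and 250 CPM in LLC spleen and 73.8, 85.9, 70.2 and 90.9 CPM in MC38 spleen. Rpl41 had 590, 640, 501 and 627 CPM and then 230, 209, 203 and 253 CPM. Neither gene's groups overlapped, and the log2 differences were -1.52 and -1.40. Other lists moved with the spleens: in MC38 spleen all 7 fat cell and all 9 fibroblast and endothelial markers rose (Col3a1 from 0.126 to 176 CPM), and 9 of 10 neutrophil markers (S100a8 from 691 to 174 CPM), 9 of 12 proliferation genes, 7 of 15 monocyte and macrophage markers (2 others rose) and 4 of 10 T and NK cell markers (Nkg7 from 6.62 to 1.68 CPM) fell. Of the 4 MC38 spleen libraries, 3 are those with fat cell transcripts. Without them 1 MC38 spleen library remained, assumed to vary like the other groups, and 2 members were called, with a median of -0.42. In that library, replicate 4, Rpl39 had 90.9 CPM and Rpl41 253 CPM, the highest of its group and still below every LLC spleen library.

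The difference between the spleens was larger in shorter members. Across 80 members with a coding length (75 to 1257 bases, median 456) Spearman's rho between coding length and the log2 difference between spleens was 0.75, against 0.03 over 12370 other genes. The 10 tested members of 300 bases or less had a median of -1.05 and the 24 members over 600 bases one of -0.32. Within the family, members of 300 bases or less took 4.14% to 4.84% of the ribosomal protein counts in MC38 spleen, 4.84% being the library without fat cell transcripts, and 6.39% to 7.47% in LLC spleen. MC38 macrophage replicate 4 had 4.32% against 6.34% to 7.63% in the other libraries of its group. For TuMon1 against TuMon2 and for the supernatants rho was -0.15 and 0.05. The points share libraries and the relation is given as a description.

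**Figure D5:**
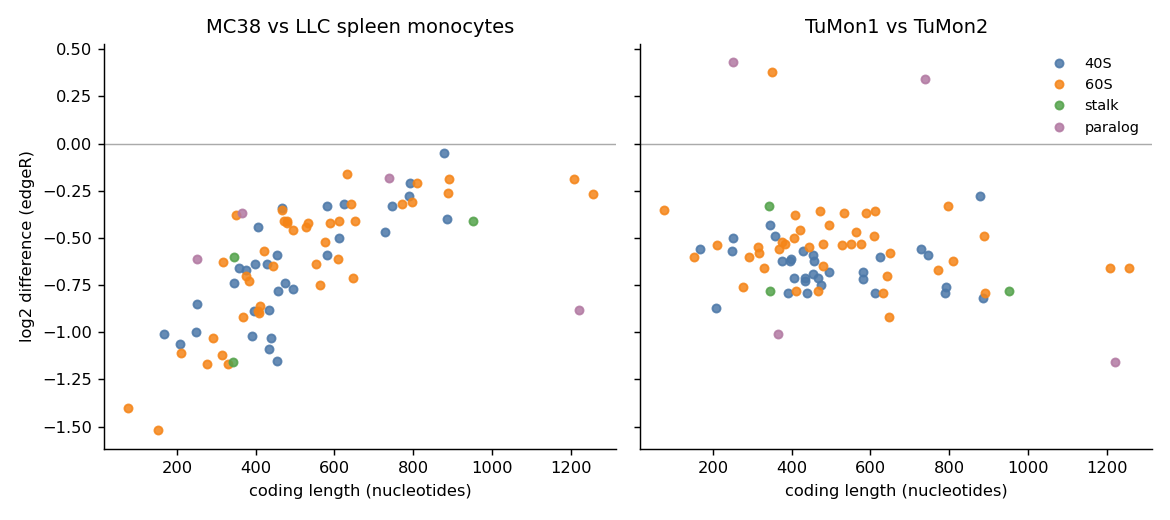
Log2 difference (y axis) against coding length in nucleotides (x axis, linear) for the tested members, colored by subunit class, between the spleens (left) and between the tumor monocytes (right); Rpl30, whose counts lie on another row in some libraries, is left out. Members of 300 bases or less have a median of -1.05 in MC38 against LLC spleen and of -0.57 in TuMon1 against TuMon2, where members over 600 bases have -0.32 and -0.66.

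MC38 tumor against spleen uses the same 4 MC38 spleen libraries, here on the other side of the difference, and rho was -0.71. Rpl41 had 370 to 596 CPM in TuMon1 and 203 to 253 CPM in spleen (log2 difference 1.18), and Rpl39 115 to 179 and 70.2 to 90.9 CPM (0.90). Without the 3 libraries with fat cell transcripts neither call held (edgeR adjusted p = 0.0766 and 0.134). Rps27l had 59.1 to 68.9 CPM in TuMon1 and 30.7 to 38.3 CPM in MC38 spleen, a log2 difference of 0.96 (edgeR adjusted p = 3.4e-05), while in the LLC model its difference was -0.09 (edgeR adjusted p = 0.674). The test of the tumor-minus-spleen difference between the models called 24 members, 9 higher and 15 lower, where 42.9% of genes were called (23.8% higher, 19.1% lower). The larger direction turned without TuMon2 replicate 1 (9 higher, 8 lower) and without MC38 spleen replicate 4 (16 higher, 12 lower). Rps27l differed between the models by 1.04 ± 0.24 (log2, SE; edgeR adjusted p = 0.00136) and Rpl41 by 1.05.

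Tumor macrophages were compared with the monocytes of the same tumors. In MC38 tumors 54 of 81 members were higher in macrophages than in TuMon1 and 2 were lower, where 52.7% of genes were called (24.8% higher, 27.9% lower), with a median of 0.37. In LLC tumors 10 were higher and 7 lower than in TuMon2 (55.5% called, 29.2% higher and 26.3% lower), with a median of -0.04. That balance depends on scaling: 9 were higher and 14 lower with RLE factors, and 22 higher and 3 lower with upper quartile factors, which shift the median of all genes to 0.21. Without TuMon2 replicate 2 or 4 it was 6 and 7, and without LLC macrophage replicate 3 it was 7 and 13. The difference between the models was itself tested, and 29 members had a larger macrophage-minus-monocyte difference in MC38 while none had a smaller one, where 14.5% of genes were called (6.25% higher, 8.27% lower). The count was 46 without MC38 macrophage replicate 4, and between 16 and 19 without MC38 macrophage replicate 1 or 3, TuMon1 replicate 1, 2 or 3, TuMon2 replicate 1 or LLC macrophage replicate 2, with none in the other direction.

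Rpl12 had 380, 405, 354 and 378 CPM in TuMon1 and 777, 699, 724 and 602 CPM in MC38 macrophages. In LLC tumors it had 549, 478, 545 and 477 CPM in TuMon2 and 758, 602, 845 and 850 CPM in macrophages. Macrophages were above monocytes in both tumors with no overlap, by 0.88 and 0.58 on the log2 scale. Rpl14 rose likewise by 0.80 and 0.53, and Rpl3 by 0.77 and 0.48.

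Rpsa shows the difference between the models. It rose by 0.72 in MC38 macrophages (edgeR adjusted p = 2.49e-07) and differed by 0.09 in LLC macrophages (edgeR adjusted p = 0.387). The difference between these was 0.63 ± 0.12 (log2, SE; edgeR adjusted p = 0.00103). Rplp0 rose by 0.35 in MC38 and fell by 0.29 in LLC macrophages, a difference of 0.64 (edgeR adjusted p = 0.00236). Rpl28 gave a difference of 0.68 and Rps24 one of 0.56.

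Biogenesis genes rose in macrophages of both tumors, 32 of 36 in MC38 (median 0.66) and 34 of 36 in LLC (median 0.65), and 1 fell in each. That gene, named after its values were seen, was Heatr1, a nucleolar factor, with log2 differences of -0.48 in MC38 and -0.58 in LLC. Translation factors rose in 16 of 20 cases and fell in 1 in MC38, and rose in 8 and fell in 4 in LLC. Proliferation genes rose in 12 of 12 in MC38 macrophages and 11 of 12 in LLC macrophages. Their part in the ribosomal protein results was not tested.

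Between the macrophages of the tumors the family differed less. In MC38 macrophages 24 of 81 members were lower and 2 were higher than in LLC macrophages, where 45.3% of genes were called (22.9% lower, 22.4% higher), with a median of -0.19. The count was 43 without LLC macrophage replicate 2, which had the lowest family share of its group (3.92%), and between 13 and 17 without LLC macrophage replicate 1, 3 or 4 or MC38 macrophage replicate 4. The members that stood out were those of the monocytes: Rpl22l1 had 57.1, 37.4, 62.3 and 51.7 CPM in LLC macrophages and 29.7, 23.9, 34.8 and 19.1 CPM in MC38 macrophages. These ranges do not overlap, and the log2 difference was -0.96 (edgeR adjusted p = 9.79e-05). Rpl10a fell by 0.53. Rps27l rose by 0.58 and Rpl7l1 by 0.24. The Rps27l call was lost when only the groups compared were fitted (edgeR adjusted p = 0.0728). Proliferation genes and cell markers also differed between these macrophages, the markers in both directions. Top2a had 42.4 CPM in LLC and 209 CPM in MC38 macrophages, and Adgre1 403 and 847 CPM. Ccr2 had 1230.4 and 238 CPM, and Lyz2 6730.1 and 1319.2 CPM. The part of these differences in the ribosomal protein results was not tested.

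The tissue-restricted paralogs stayed near 0 in nearly every library. Rpl10l had at most 0.293 CPM outside Control replicate 2, where it had 85.1 CPM. Rpl39l had at most 0.711 CPM outside the same library, where it had 6.08 CPM. Rpl3l, of striated muscle, had 2.78 to 3.47 CPM in LLC spleen monocytes, 0.976 to 2.25 CPM in MC38 spleen monocytes and 1.03 to 1.6 CPM in TuMon2. It had 0.129 to 0.596 CPM in LLC macrophages and at most 0.198 CPM in MC38 macrophages. It fell from monocytes to macrophages in both tumors (edgeR adjusted p = 0.000625 in LLC and 0.000548 in MC38). The levels compared were low, at most 1.6 CPM in TuMon2 and 0.198 CPM in MC38 macrophages. Rpl32l had 1.97 to 8.15 CPM in all libraries but Control replicate 2, where it had 37.7 CPM. Its call against the control in MC38 supernatant (-2.23, edgeR adjusted p = 0.0175) includes this library, and was lost without any 1 library given MC38 supernatant (adjusted p 0.0513 to 0.0706).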

How the data were processed

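The authors deposited a table of expected counts per gene for 34 libraries: 14.62% of its values are not whole (37.32% for the members, in 38 of them), and all were rounded before testing. The submitters' processing notes name CASAVA 1.8.2 and the builds GRCm38 and mm10. Which aligner and which counter were used is not given in the sources used here. RNA was reverse transcribed with a stranded mRNA kit, per the labels' protocols. Gene identifiers were matched to RefSeq symbols for 24375 of 24475 rows; the 100 unmatched rows hold 1.43% of counts.

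Libraries from mice (24) and from culture (10) were fitted apart with edgeR 4.0.16 (R 4.3.3): filterByExpr, TMM factors (0.845 to 1.18 and 0.937 to 1.09) and the quasi-likelihood F test with Benjamini-Hochberg adjustment over 13200 and 12603 genes, with a threshold of 0.05. A member was called at an adjusted p below that threshold. A standard error is the log2 difference divided by the square root of F. For values relative to the family, each library was scaled to its summed member counts. Coding lengths came from GENCODE M21. Members, lists and comparisons were chosen with earlier results of these data known.

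Members described singly were, in each comparison, the 4 largest called rises and falls at 10 CPM or more, on either scale, and always the paralogs with their parents, the stalk, Rpsa and Rps27a; Rpl5 and members named for their copies or overlaps were added after their values were seen, and some items are not reported here. Alternatives were RLE, upper quartile and member-free TMM factors, no filter, DESeq2 1.42.0, only the groups compared, replicate blocks, left-out libraries and, after seeing the data, summing near-identical rows. In counts simulated from these libraries, a 1.5-fold change was recovered for 72.4% of changed members for TuMon1 against TuMon2 and a 2-fold change for 90.5%; 8 of 12692 unchanged genes were called. Between supernatants 80% and 96.7% were recovered, and for the macrophage difference between models 34.8% and 85.2%. Only a small part of the genes was changed in the simulated counts, in directions drawn at random. In the data far more genes were called and the members moved together, so these shares hold for the simulated setting only.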

Additional observations from a re-analysis of the deposited data

Results flagged for a closer look

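Over the members reported here, group by group where a library reached 1 CPM, and the family's share and subunit ratio, 32 of 566 sets of 4 libraries (5.65%) held a library far from the others by Dixon's criterion, where chance gives about 5%. Control replicate 2 accounted for 18 of them. It stood above the other controls in Rpl10l (85.1 CPM), Rpl3l (7.21), Rpl39l (6.08), Rpl32l (37.7), Rps27 (28.1), Rpl22 (348), Rpl30 (798), Rpl36 (358), Rpl15 (682), Rpl24 (497), Rps18 (666) and Rps24 (1350 CPM). It stood below them in Rpl18 (392 CPM), Rpl21 (630), Rpl4 (1390), Rpl6 (820), Rps2 (540) and Rps3a1 (952 CPM). LLC macrophage replicate 2 stood below its group in Rps27a (612 CPM), Rpl29 (355), Rps10 (394), Rps13 (308) and Rps15a (345 CPM). In LLC spleen, replicate 4 stood above the others in Rpl22l1 (58.3 CPM) and Rps27l (55.6) and below them in Rpl30 (1.54 CPM), replicate 2 stood above in Rps7 (748 CPM), and replicate 3 below in Rpl35 (435 CPM). The remaining libraries were Control replicate 1 in Rpl13a (745 CPM, lowest), TuMon1 replicate 4 in Rps15a (305, highest), TuMon1 replicate 3 in Rpl30 (250, highest) and MC38 spleen replicate 2 in Rpl30 (327 CPM, highest).

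The tumor-minus-spleen difference of monocytes differed between the MC38 and LLC models, by an interaction term in edgeR, for 24 of 81 members (29.6%). It did so for 42.9% of all tested genes. Of the 24, 9 were higher and 15 lower in MC38, and the larger direction turned without certain single libraries. The 24 included Rpl41 (1.05 on the log2 scale), Rps27l (1.04), Rpl39 (0.92) and Rplp1 (0.82). The macrophage-minus-monocyte difference differed between the models for 29 of 81 members (35.8%), where 14.5% of all tested genes were called. All 29 were higher in MC38, among them Rpl28 (0.68), Rplp0 (0.64), Rpsa (0.63) and Rps24 (0.56).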

How the results depend on the processing

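Over 22 counts of called members and 344 alternative values, 306 stayed within 1.5 times with the same direction, 25 moved further and 13 changed the larger direction. The counts for TuMon1 against TuMon2 (67 to 75 with single libraries left out), the supernatants (71 to 74), MC38 and LLC supernatant against control (75 to 77 and 51 to 69) and MC38 macrophages against monocytes (45 to 65) kept theirs under every alternative run. Left-out libraries gave 36 to 45 for MC38 tumor against spleen (24 higher and 21 lower without spleen replicate 4), 10 to 15 for LLC tumor against spleen, 13 to 20 for LLC macrophages against monocytes, 13 to 43 for MC38 against LLC macrophages, 17 to 28 for the tumor-minus-spleen difference between models and 16 to 46 for the macrophage-minus-monocyte one. Upper quartile factors gave 27 for LLC tumor against spleen. For LLC macrophages against monocytes RLE factors gave 23, no filter 23, DESeq2 27 and leaving out the libraries with transcripts of other tissues 22, each with more lower than higher. Fitting only the groups compared gave 16 for MC38 against LLC macrophages. Leaving out those libraries gave 2 for MC38 against LLC spleen.

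Relative to the family, the same step gave 35 for MC38 tumor against spleen, 9 for MC38 against LLC macrophages, 0 between the spleens (1 MC38 spleen library left) and 39 between the supernatants (21 higher, 18 lower). Left-out libraries gave 8 to 15 for LLC tumor against spleen, 26 to 31 for LLC macrophages against monocytes, 8 to 16 for MC38 against LLC macrophages and 15 to 25 between the supernatants. The cause of these changes was not tested. With near-identical rows added, the family's share was 5.53% in LLC spleen, 2.92% in TuMon1, 5.49% in controls and 3.64% with LLC supernatant.

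Between same-numbered libraries, r of the deviations lay between -0.372 and 0.319, and in no comparison was it above 0.1 for every pair. For macrophages and monocytes of the same tumor line it was -0.033 to 0.154 in MC38 and -0.058 to 0.319 in LLC. With 4 pairs each, these values cannot decide whether the libraries were paired. The replicate block joined the same number across both tumor lines, so it does not model pairing within a tumor. With the replicate block 73 members were called for TuMon1 against TuMon2, 72 between the supernatants and 54 for MC38 macrophages against monocytes; the Rplp1 call in TuMon1 against TuMon2 was lost, and no count moved beyond 1.5 times. For 140 results for single members, 50 of 2214 alternative values lost the call and none turned. Rps27 in MC38 macrophages, Rpl12 in LLC tumor against spleen, Rps28 relative to the family in TuMon1 and Rpl39 in TuMon1 were among the results that lost a call.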
